A study of Mus musculus with 3 samples.

Results

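The complement genes C1qa, C1qb, C1qc, C3, C4b, Cfb, Serping1, C3ar1 and C5ar1 were followed through 3 mouse melanomas profiled cell by cell. They make up 9 of the 36530 features in the count tables, and they were taken by name to set components made by macrophages beside components made by fibroblasts. The mice carried Braf LSL.V600E and Tyr.CreER among their alleles, in some animals with Rosa26 LSL.tdTomato, on a C57BL/6 background (backcrossed to C57BL/6J). The labels do not say which of the 3 animals carried the reporter, and they give no age. Topical 4-OH tamoxifen on the flank started the tumor. Cre is driven by the tyrosinase promoter, which is active in the melanocyte lineage, and recombination in the macrophages, fibroblasts and vessels described here was not measured. One tumor was left untreated, another had regressed under vemurafenib, an inhibitor of mutant Braf given by gavage, and the last had progressed under vemurafenib. Each state was 1 tumor and 1 droplet library, so no difference between states has a replicate check, no test across tumors was possible, and treatment, animal and library cannot be told apart.

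Complement is a cascade of plasma and tissue proteins that coats targets, recruits leukocytes and can open membranes. C1q, built from the chains encoded by C1qa, C1qb and C1qc, starts the classical pathway by binding antibody complexes, dying cells and other surfaces, after which C4 and C2 form an enzyme that cleaves C3. Factor B, the product of Cfb, forms the corresponding enzyme of the alternative pathway together with C3 itself, while the inhibitor encoded by Serping1 stops the C1 proteases. The fragments C3a and C5a are sensed by the receptors encoded by C3ar1 and C5ar1. Most plasma complement comes from the liver, whereas C1q is made mainly by macrophages and dendritic cells in tissues, and fibroblasts are a known local source of C3, factor B and C1 inhibitor.

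The libraries held 4095, 3726 and 4849 cells in the untreated, regressed and progressed tumors, with 4496, 2658 and 4566 UMIs (unique molecular identifiers, each standing for 1 captured transcript) per cell at the median. Cells carried the authors' own names for 25 clusters. The clusters named Macrophages and Monocytes1 were summed as the macrophage class, with 537, 340 and 392 cells, and all clusters named Stroma were summed as stroma, with 2628, 1918 and 3422 cells. Levels are given as CPM, the gene's UMIs in every 1000000 UMIs summed over the cells of a group, always in the order untreated, regressed, progressed. Intervals are exact Poisson 95% intervals for CPM and exact binomial 95% intervals for log2 ratios and shares, and they cover counting error only. The summed marker levels separated the macrophage class from stroma. The summed level of 7 macrophage markers was 7523, 11042 and 11257 CPM in the macrophage class against 38.9, 114 and 38.4 CPM in stroma, and that of 7 fibroblast markers was 46611, 40122 and 46982 CPM in stroma against 3223, 4919 and 4136 CPM in the macrophage class. Every marker of both lists was detected in both classes in each tumor. The macrophage marker Lyz2 stood at 3629, 8281 and 5495 CPM in Macrophages and 7254, 9808 and 20673 CPM in Monocytes1. Lyz2 and Fcgr1 were higher in Monocytes1, and the other macrophage markers were higher in Macrophages, in every tumor. Since clusters were formed with all genes, members included, differences between clusters are descriptions.

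The members lie in few places in the genome (RefSeq genes, GRCm38.p6). C1qa (12259, chr4:136895916-136898844), C1qc (12262, chr4:136889801-136892936) and C1qb (12260, chr4:136880126-136886200) sit side by side within 18719 bases of chromosome 4. C4b (12268, chr17:34728139-34743902) and Cfb (14962, chr17:34856374-34862514) lie within 134376 bases of each other on chromosome 17, with C2 only 87 bases from Cfb, and C3 (12266, chr17:57203967-57228136) lies farther along the same chromosome. Serping1 (12258) is at chr2:84765360-84775444, C3ar1 (12267) at chr6:122847140-122856157 and C5ar1 (12273) at chr7:16246743-16259540. All 9 are protein-coding genes.

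Promoter sequence is shown for C1qb, C1qc, C3ar1 and C3, all with a promoter entry in the RefSeq table used. C1qb, C1qc and C3ar1 were over 2-fold higher in the macrophage class than in stroma in every tumor. C3 was over 2-fold higher in stroma in the untreated tumor only. C5ar1 has an entry too, but its sequence is not printed. Each line gives the 250 bases before the RefSeq start site (GRCm38.p6, minus strand, written 5′ to 3′ toward the gene), and capitals mark a match to one of 5 motifs searched on both strands.

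C1qb, chr4:136886201-136886450: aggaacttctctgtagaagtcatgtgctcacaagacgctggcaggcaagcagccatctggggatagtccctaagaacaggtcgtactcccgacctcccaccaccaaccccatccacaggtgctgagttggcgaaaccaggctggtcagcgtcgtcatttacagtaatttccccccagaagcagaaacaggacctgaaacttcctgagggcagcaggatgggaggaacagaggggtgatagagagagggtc

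C1qc, chr4:136892915-136893164: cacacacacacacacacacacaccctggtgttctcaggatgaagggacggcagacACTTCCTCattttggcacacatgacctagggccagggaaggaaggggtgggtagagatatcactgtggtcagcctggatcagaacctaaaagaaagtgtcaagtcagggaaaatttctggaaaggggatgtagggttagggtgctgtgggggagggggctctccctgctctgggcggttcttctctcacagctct

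C3, chr17:57228137-57228386: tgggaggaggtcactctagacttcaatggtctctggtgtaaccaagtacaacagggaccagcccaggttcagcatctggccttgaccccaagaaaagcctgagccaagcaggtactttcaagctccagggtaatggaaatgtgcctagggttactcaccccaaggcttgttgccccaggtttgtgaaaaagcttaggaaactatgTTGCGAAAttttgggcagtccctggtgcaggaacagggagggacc

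C3ar1, chr6:122856158-122856407: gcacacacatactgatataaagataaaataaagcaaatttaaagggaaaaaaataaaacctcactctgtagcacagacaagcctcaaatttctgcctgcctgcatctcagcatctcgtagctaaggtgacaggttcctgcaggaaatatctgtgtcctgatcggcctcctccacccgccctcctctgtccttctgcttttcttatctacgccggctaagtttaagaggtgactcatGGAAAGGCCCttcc

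The capitals in C1qc are a match to GAGGAAGT, the form bound by PU.1 and related factors, on the opposite strand starting 195 bases before the start site. These letters occur in 2.44% of 32851 mouse promoter windows of the same length. The capitals in C3 match TTGCNNAA, made of C/EBP half-sites, 45 bases before the start, found in 9.56% of windows. Those in C3ar1 match the NF-kB motif on the opposite strand, found in 4.11% of windows. The STAT motif TTCNNNGAA and the ISRE motif were in none of the 5 member windows available, the fifth being that of C5ar1 at chr7:16259339-16259588, against 7.02% and 2.98% of all windows. For C1qc and C5ar1 the start site used lies inside the gene bounds given above, so these windows run partly into those bounds. A match is a run of letters, not a site in use, and its absence says only that the letters are not in that window. C1qa, C4b, Cfb and Serping1 are named only.

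The C1q chains, C3ar1 and C5ar1 lay on a macrophage side in every tumor, and Serping1 lay on a fibroblast side. The place of C3, Cfb and C4b differed between tumors. In the untreated tumor 5 of 9 members (the C1q chains, C3ar1 and C5ar1) were more than 2-fold higher in the macrophage class than in stroma, where 14.0% of all genes with at least 20 UMIs were, and 3 (C3, Cfb and Serping1) were more than 2-fold lower, where 30.5% of all genes were. The regressed tumor had the same 5 on the macrophage side (background 13.1%) and 2 on the stroma side, Cfb and Serping1 (background 27.3%). Dropping the deepest 5% of cells brought Cfb there to -0.91, within 2-fold. In the progressed tumor C4b joined the macrophage side, giving 6 members (background 13.2%), and Serping1 was the 1 member left on the stroma side (background 28.8%). The median log2 ratio of macrophage class over stroma was 6.78, 4.88 and 8.24 for the members against -0.35, -0.32 and -0.37 for all genes. The members were chosen by name, and with 5 of 9 on the macrophage side their median falls on 1 of those 5. Over 36, 29 and 33 other complement genes with at least 20 UMIs the median was -1.42, -1.16 and -0.59. For C1qa the log2 ratio of macrophage class over stroma was 7.78 (7.55 to 8.02), 5.42 (5.24 to 5.61) and 8.35 (8.18 to 8.52), lowest in the regressed tumor. It was 7.39 (6.69 to 8.18), 5.63 (5.06 to 6.25) and 8.88 (8.12 to 9.76) for C3ar1 and 6.78 (6.27 to 7.35), 4.88 (4.40 to 5.38) and 8.73 (8.07 to 9.47) for C5ar1, in the same order of tumors. C3 passed from the stroma side to within 2-fold, with -2.17 (-2.45 to -1.91), -0.73 (-1.15 to -0.34) and 0.70 (0.39 to 0.99), as did Cfb with -2.60 (-2.87 to -2.34), -1.27 (-1.74 to -0.83) and 0.19 (-0.046 to 0.42). Serping1 stayed on the stroma side in every tumor, with -3.88 (-4.01 to -3.76), -2.72 (-2.87 to -2.56) and -3.42 (-3.60 to -3.25), and C4b was at 0.81 (0.59 to 1.02), -0.18 (-0.74 to 0.34) and 2.53 (2.32 to 2.73). The sharing out of each gene's transcripts followed the same lines. The macrophage class, with 10.5%, 8.81% and 5.62% of all UMIs, held 94.6%, 76.6% and 87.1% of the C1qa UMIs. Stroma, with 63.4%, 51.8% and 65.3% of all UMIs, held 95.4%, 88.7% and 94.5% of the Serping1 UMIs.

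**Figure D1:**
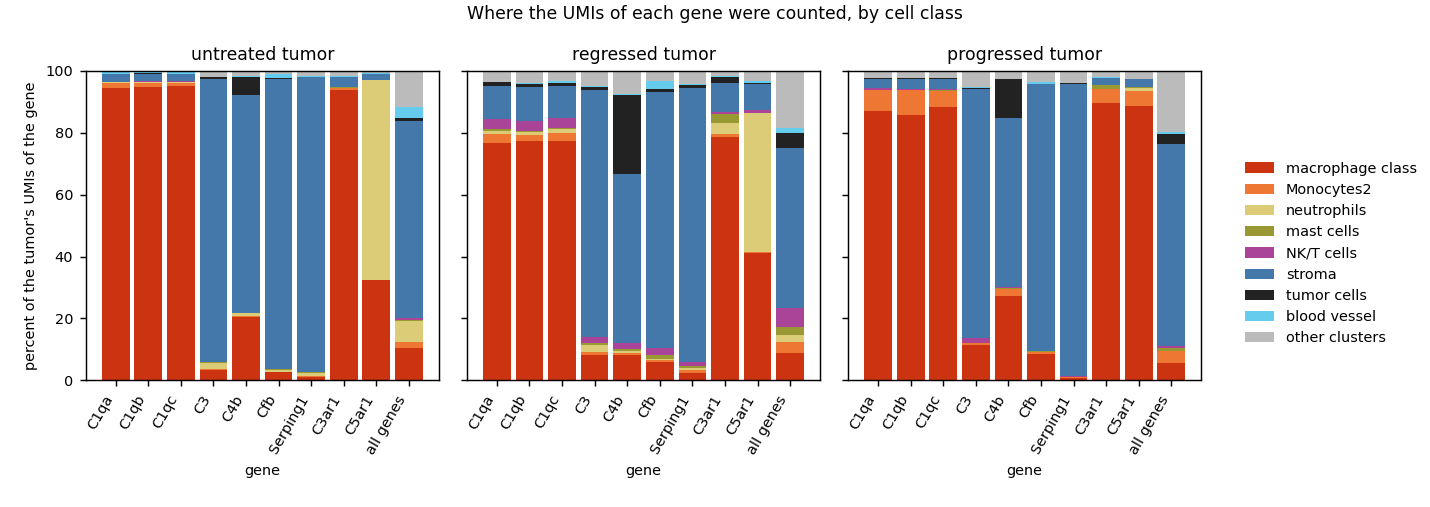
Stacked bars give, for each member and for all genes together (x axis) in each of the 3 tumors, the percent of UMIs (y axis) held by each cell class. C1q and C3ar1 bars are mostly macrophage class, C3, Cfb and Serping1 bars mostly stroma, C5ar1 is divided with neutrophils except in the progressed tumor, and C4b is spread over macrophage class, stroma and tumor cells.

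**Figure D2:**
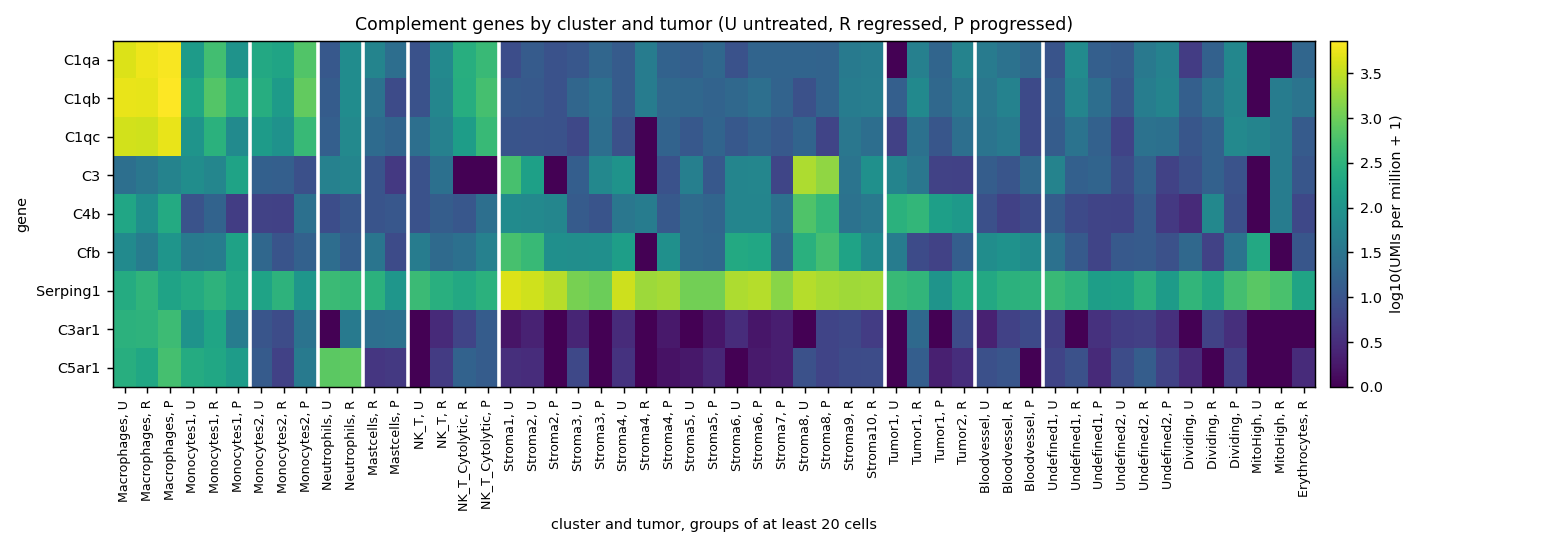
The heat map gives log10(CPM + 1) of each member (y axis) in each of the 53 groups (cluster by tumor, x axis) with at least 20 cells, from dark (0) to yellow (highest). The Macrophages cluster is the brightest group for C1qa, C1qb and C1qc in every tumor, while Serping1 is bright in every Stroma cluster.

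C1q transcripts marked the Macrophages cluster in every tumor. Within that cluster C1qa stood at 4498 (4379 to 4619), 5764 (5481 to 6058) and 6603 (6462 to 6746) CPM. C1qb stood at 5339.8 (5210.3 to 5472), 5200.2 (4931 to 5479.8) and 7284 (7136 to 7434) CPM. C1qc stood at 4004 (3892 to 4119), 3771 (3543 to 4010.3) and 5459.8 (5332 to 5590.1) CPM. For each of the 3 chains the progressed tumor was the highest, and the order of the others differed, with the regressed tumor above the untreated one for C1qa and a little below it for C1qb and C1qc. The chains kept similar proportions, C1qb making up 38.6%, 35.3% and 37.6% of the C1q UMIs of these cells. At least 1 C1q UMI was present in 309 of 312, 143 of 143 and 333 of 339 cells, with a median of 38.5, 22 and 59 C1q UMIs per cell at median depths of 3429, 1388 and 3450 UMIs. In the NK_T cluster of the regressed tumor, lymphocytes that do not make C1q, 27.8% of 180 cells still held a C1q UMI, at a median depth of 2652 UMIs, so a single C1q UMI in a cell was read as background. A limit of 10 C1q UMIs per cell was passed by 93.6%, 79.7% and 96.5% of Macrophages cells, a share that depends on those depths, and by 1 of the NK_T cells.

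The clusters named Monocytes held far less C1q. Monocytes2 carried dendritic cell markers as well as monocyte markers. Its summed level of 5 dendritic cell markers was 1131, 370.1 and 554 CPM against 31.7, 22.9 and 8.59 CPM in the macrophage class. Among these, Cd207 stood at 379, 27.6 and 291 CPM and Flt3 at 122, 163 and 90.9 CPM. Its summed level of 4 monocyte markers was 2073, 1694 and 782 CPM against 3536, 3394 and 2008 CPM in the macrophage class. The summed C1q level was 424, 1448 and 450.2 CPM in Monocytes1 and 604, 398 and 1918 CPM in Monocytes2, against 13842, 14736 and 19346 CPM in Macrophages. The regressed tumor was the highest of the 3 in Monocytes1. There the macrophage marker Mrc1 was also highest, at 48.9, 153 and 4.02 CPM. The monocyte markers Plac8 and Ly6c2 were lowest, at 3856, 1634 and 6813 CPM and 722, 265 and 1206 CPM. The other monocyte markers, Ccr2 (974, 1560 and 864 CPM) and Chil3 (689, 799 and 667 CPM), were highest in the regressed tumor. Of the other macrophage markers, Adgre1, Cd68, Fcgr1 and Lyz2 were highest in the progressed tumor and Csf1r and Mertk in the untreated tumor. In Monocytes2 C1q was highest in the progressed tumor, where the median cell held 0 C1q UMIs and 28 of 161 cells held at least 10. There 1 cell held 371 of the 1942 C1q UMIs. Of the 173 C1q UMIs in regressed Monocytes2, 73.99% came from 2 of 57 cells. The log2 ratio of Macrophages over Monocytes1 for C1qa was 5.12 (4.89 to 5.37) in the untreated, 3.56 (3.40 to 3.72) in the regressed and 6.10 (5.52 to 6.74) in the progressed tumor. In Monocytes1 of the regressed tumor 15.7% of 197 cells had at least 10 C1q UMIs, against 5.78% of 225 cells in the untreated tumor. In the cytolytic lymphocyte cluster a few cells held most of the C1q. Of 128 C1q UMIs in 58 cells of the regressed tumor, spread over 26 cells, 69.5% were in the 2 highest, and of 108 C1q UMIs in 24 cells of the progressed tumor, 96.3% were in the 2 highest cells. Doublets were not removed, and their part in such cells was not tested.

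C1q UMIs in stroma were few and moved with macrophage markers. C1qa stood at 10.9 (9.21 to 12.7), 41.7 (36.9 to 47.02) and 16.9 (15.1 to 18.98) CPM in stroma, which was 0.454%, 2.33% and 0.306% of its level in the macrophage class, and the regressed tumor was the highest. The median of the 7 macrophage markers, taken in the same way, was 0.725%, 3.04% and 0.519%. The part that RNA from macrophages had in the stroma values was not tested.

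C3, the protein on which all complement routes meet, was strongest in a small fibroblast cluster. Stroma8, with 23, 18 and 21 cells, held C3 at 2413 (2145 to 2705), 1032 (810.5 to 1296) and 1677 (1498 to 1872) CPM, the highest of any group of at least 20 cells in the untreated and progressed tumors. The regressed value rests on fewer cells than that limit. C3 UMIs were found in 100%, 88.9% and 95.2% of Stroma8 cells, against 7.22% of NK_T cells in the regressed tumor, and the median depths were 4911, 4258 and 8563 against 2652 UMIs. After each cell was thinned to 1000 UMIs the shares in Stroma8 were 95.7%, 62.5% and 71.4%, and that in NK_T was 3.57%. Stroma8 made up 0.865%, 1.12% and 1.08% of stroma UMIs but 9.24%, 13.3% and 40.8% of stroma C3. In the untreated tumor most other stroma C3 lay in Stroma1 at 548 (521 to 575) CPM and Stroma2 at 157 (147 to 168) CPM. Stroma1 was almost confined to that tumor, the regressed tumor having 1 such cell and the progressed tumor 0.

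C3 in stroma as a whole was 226 (218 to 234), 86.7 (79.6 to 94.2) and 44.4 (41.3 to 47.6) CPM, so the untreated tumor was the highest and the progressed tumor the lowest. The log2 ratio was -1.38 (-1.52 to -1.25) for regressed over untreated and -2.35 (-2.46 to -2.24) for progressed over untreated. Without Stroma8, an alternative chosen after seeing the data, the log2 ratio of C3 for macrophage class over stroma in the progressed tumor was 1.44, past 2-fold, and that for progressed over regressed stroma was -1.52. The direction was not shared by every fibroblast cluster. Between the untreated and progressed tumors C3 went from 95.6 to 8.45 CPM in Stroma4 (log2 ratio -3.50, -4.09 to -2.96) and from 46.3 to 10.7 CPM in Stroma5 (-2.12, -2.66 to -1.58). It was 56.97 and 57.4 CPM in Stroma6 (0.012, -0.56 to 0.64), and it was higher in the progressed tumor in Stroma3, at 13.3 and 63.5 CPM (2.25, 1.17 to 3.49). Among members with at least 20 UMIs, C3 and C4b of 7 were over 2-fold lower in Stroma4 (background 3.66%, higher 4.12%) and C3 alone of 7 in Stroma5 (background 2.95%, higher 4.87%). In Stroma6 0 of 7 were past 2-fold in either direction (background 6.77% lower and 7.49% higher), and in Stroma3 C3 alone of 4 was higher (background 4.33%, lower 4.75%). Outside stroma, Monocytes1 held C3 at 77.4, 58.3 and 173 CPM and Macrophages at 24.8, 33.4 and 52.2 CPM. Of the 5136 C3 UMIs, 3562 were also counted for a feature that has no symbol, so the C3 counts may rest in part on reads that fall on both.

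**Figure D3:**
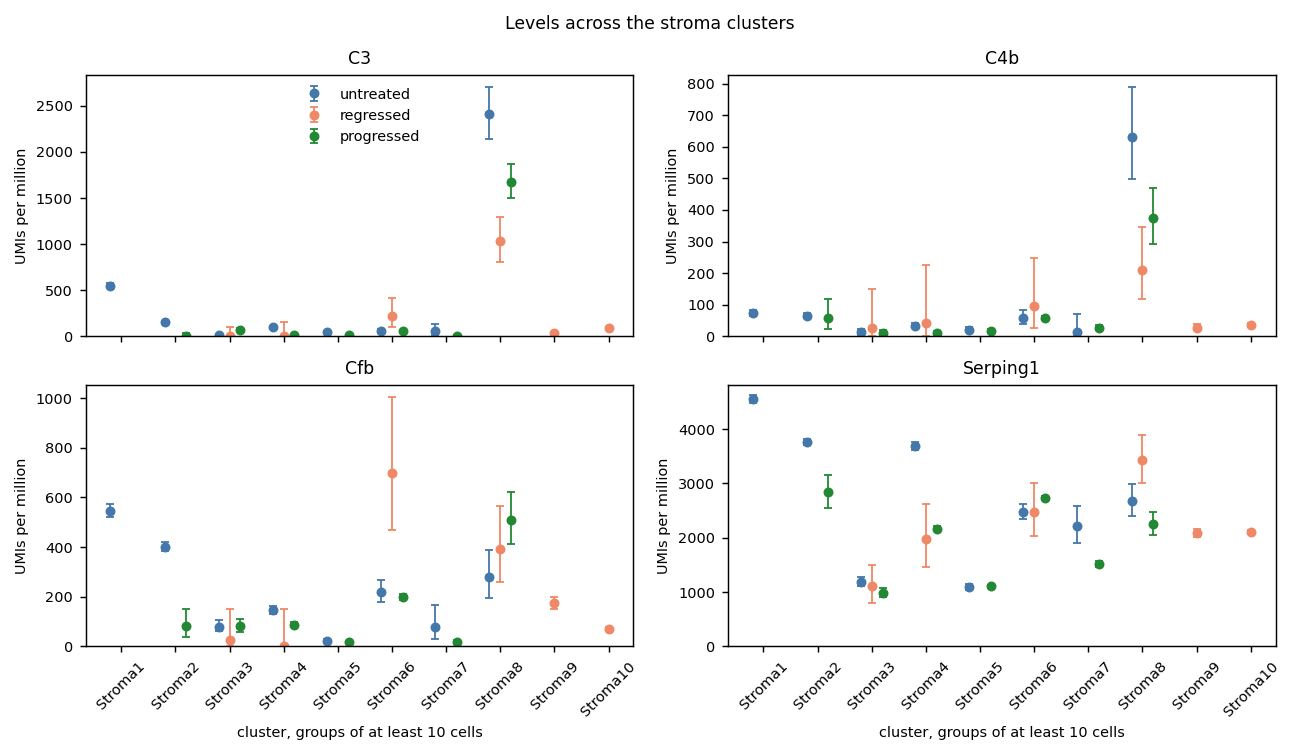
Points give the CPM of C3, C4b, Cfb and Serping1 (y axes, linear, 1 panel per gene) in each Stroma cluster (x axis) with at least 10 cells in the tumor, with exact Poisson 95% intervals as bars, colored by tumor. Stroma8 lies above the other clusters for C3 and C4b, and C3 in Stroma4 and Stroma5 lies lower in the progressed than in the untreated tumor.

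Cfb, which encodes the protease-bearing factor B of the alternative pathway, also had most of its UMIs in stroma. In the progressed tumor its level was no higher there than in the macrophage class. Cfb stood at 325 (316 to 335), 98.99 (91.4 to 107) and 99.1 (94.5 to 104) CPM in stroma and at 53.6 (44.6 to 63.8), 41.2 (30.03 to 55.1) and 113 (96.6 to 131) CPM in the macrophage class. Stroma held 93.8%, 83.03% and 86.1% of Cfb UMIs, beside 63.4%, 51.8% and 65.3% of all UMIs. The untreated tumor was the highest in stroma and the treated tumors were equal there within counting error, whereas the progressed tumor was the highest in the macrophage class. In the untreated tumor Cfb was at 546 (519.8 to 573) CPM in Stroma1 and 402 (386 to 419) CPM in Stroma2. In the 2 clusters that form most of the regressed stroma it was at 174 (152 to 197) CPM (Stroma9) and 69.4 (62.2 to 77.2) CPM (Stroma10). Between the untreated and progressed tumors the Cfb log2 ratio was -0.74 (-0.96 to -0.52) in Stroma4 and -0.14 (-0.43 to 0.17) in Stroma6, both within 2-fold. Stroma8 held 279, 391 and 510.0 CPM, and here the untreated tumor was the lowest.

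Blood vessel cells also carried Cfb. The Bloodvessel cluster held Cfb at 77.02 (58.8 to 99.1), 93.3 (56.97 to 144) and 70.04 (34.96 to 125) CPM, 23.7%, 94.2% and 70.7% of the stroma level, where the 7 fibroblast markers reached a median of 2.76%, 10.9% and 8.84% and a highest value of 3.31%, 12.2% and 14.01%. The 3 tumors did not differ there beyond their intervals. In Monocytes1 Cfb was at 37.4 (26.9 to 50.5), 41.3 (28.6 to 57.7) and 169 (122 to 228) CPM, the progressed value resting on 42 UMIs in 6 of 53 cells.

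C4b encodes complement C4, the substrate of the C1 proteases. It was the 1 member higher in the clusters named Tumor than in stroma in each of the 3 tumors. Serping1 was at 371, 263 and 120 CPM in these clusters, far below its level in stroma. The C4b counts equal those of a feature that has no symbol in all 12670 cells. For the neighbouring transcribed pseudogene C4a 2592 UMIs were counted against 2670 for C4b, with equal counts in 12590 cells. Of the 5330 windows of 50 bases in the C4b transcript, 35.2% occur unchanged in C4a. In the last 1000 bases of the transcript the share was 38.3%. The value called C4b cannot be told apart from that of C4a, and which gene gave its UMIs was not tested. In Tumor1 it was 295 (227 to 376), 358 (269 to 466) and 152 (127 to 181) CPM, and in Tumor2, mostly cells of the regressed tumor, 124 (93.1 to 161) CPM. Over stroma of the same tumor, the log2 ratio of Tumor1 was 2.33 (1.94 to 2.70), 3.30 (2.85 to 3.73) and 2.19 (1.90 to 2.47), on 44, 61 and 156 cells. The progressed tumor was the lowest. The clusters named Tumor held 7 melanoma markers at 3842, 3530.2 and 5252 CPM, against 45.7, 89.97 and 59.2 CPM in stroma, macrophage markers at 595, 225 and 135 CPM and fibroblast markers at 4357, 4544 and 5694 CPM. They held 5.66%, 25.5% and 12.6% of all C4b UMIs, beside 1.19%, 4.80% and 3.12% of the UMIs of all genes.

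In macrophages C4b was lowest in the regressed tumor. Macrophages held it at 189 (166 to 215), 81.7 (51.2 to 124) and 230.0 (204 to 258) CPM and Monocytes1 at 8.90 (4.27 to 16.4), 15.8 (8.40 to 26.99) and 4.02 (0.102 to 22.4) CPM. The regressed tumor was below both others in Macrophages, by a log2 ratio of -1.21 (-1.92 to -0.58) to the untreated tumor. In stroma C4b was 58.5 (54.6 to 62.7), 36.3 (31.8 to 41.2) and 33.4 (30.8 to 36.2) CPM, and Stroma8 was again the highest fibroblast cluster at 632 (499 to 789.9), 209 (117 to 345) and 373 (292 to 471) CPM.

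Serping1, which encodes C1 inhibitor, the serpin that blocks the C1r and C1s proteases, was the most counted member, with 102339 UMIs. Stroma held it at 3479 (3448 to 3510.0), 2110.3 (2075 to 2146) and 1918 (1898 to 1939) CPM, so the untreated tumor was the highest. Every Stroma cluster of at least 20 cells carried it, from 988 CPM in Stroma3 of the progressed tumor to 4550.1 CPM in Stroma1 of the untreated tumor. Stroma4 gave 3687, 1980.0 and 2165 CPM, Stroma8 gave 2684, 3431 and 2256 CPM, and Stroma6 gave 2479 and 2730.4 CPM in the untreated and progressed tumors. Stroma3 and Stroma5 were the low clusters, with 1192 and 1086 CPM in the untreated tumor.

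In the macrophage class Serping1 lay near the level of the fibroblast markers. In blood vessel cells and neutrophils its point values lay above them, beyond counting error only in untreated blood vessel cells. In the macrophage class it was 236 (216 to 256), 321 (288 to 357) and 179 (158 to 202) CPM, equal to 6.77%, 15.2% and 9.33% of the stroma level, and the 7 fibroblast markers there had medians of 6.29%, 12.3% and 8.31% with lowest values of 4.14%, 8.86% and 4.28% and highest values of 7.95%, 16.8% and 9.91%. The Serping1 share lay inside the range of the markers in all 3 tumors. In blood vessel cells Serping1 stood at 211 (180 to 245), 298 (230 to 381) and 318 (236 to 420) CPM. These point values were 6.05%, 14.1% and 16.6% of the stroma level, where the markers reached at most 3.31%, 12.2% and 14.01%. In neutrophils it was 12.1% and 18.5% in the untreated and regressed tumors, where the highest marker was at 11.6% and 15.3%. The progressed tumor, with 4 neutrophils, was left out. Apart from untreated blood vessel cells, the lower bound of Serping1 fell below the highest marker in each of these groups.

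**Figure D4:**
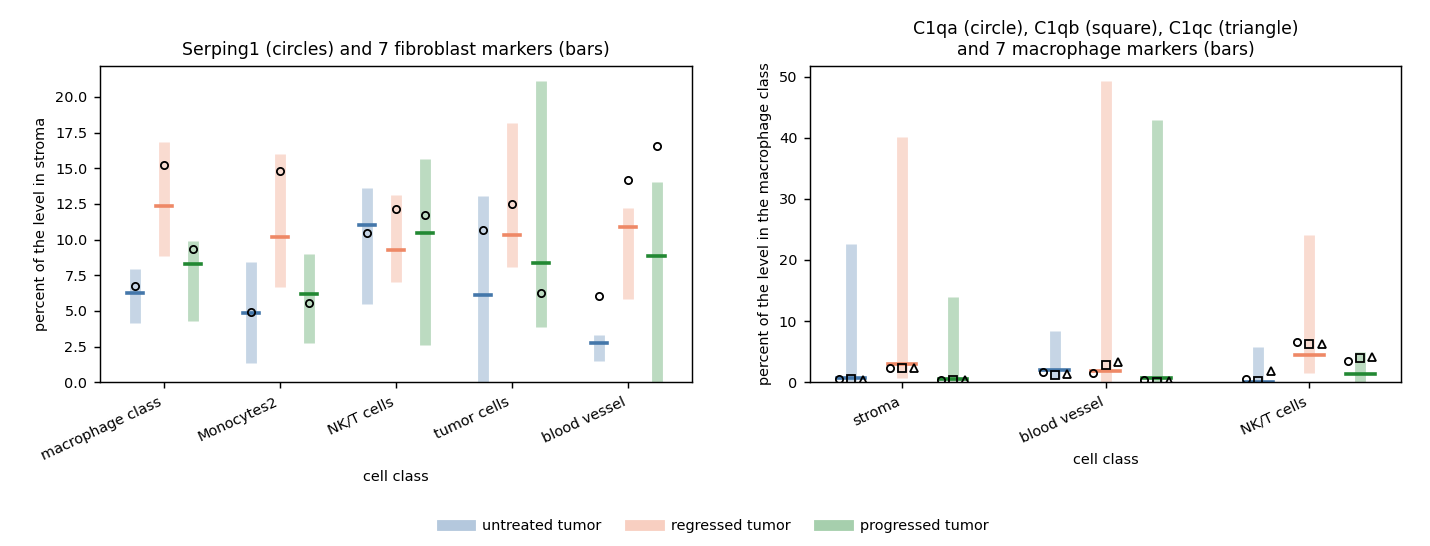
The y axes give a gene's level in another cell class (x axis) as a percent of its level in stroma (left, Serping1 as circles) or in the macrophage class (right, C1qa, C1qb and C1qc as circles, squares and triangles), and bars span the lowest to highest of the 7 markers of the source class with a line at their median, colored by tumor. Genes are drawn as point values without intervals. Serping1 lies within the bars in the macrophage class and above them in blood vessel cells, beyond counting error only in the untreated tumor. The C1q chains in stroma lie close to the marker medians, the high bar ends there being the marker Mertk.

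The receptors differed in which leukocytes carried them. C3ar1, the receptor for C3a, was at 302 (272 to 334), 308 (245 to 382) and 440.2 (404 to 478) CPM in Macrophages and 95.2 (78.03 to 115), 186 (157 to 218) and 40.2 (19.3 to 73.9) CPM in Monocytes1. The macrophage class held 93.8%, 78.7% and 89.6% of its UMIs. The Macrophages cluster was highest in the progressed tumor, and Monocytes1 was highest in the regressed tumor. C5ar1, the receptor for C5a, was highest in Neutrophils, at 769.9 (726 to 815) and 803 (705 to 912) CPM in the untreated and regressed tumors, a log2 ratio of 1.62 (1.47 to 1.76) and 1.997 (1.73 to 2.27) over the macrophage class. The progressed tumor had only 4 cells named Neutrophils, with 8 C5ar1 UMIs. Neutrophils held 64.6%, 44.8% and 1.02% and the macrophage class 32.3%, 41.2% and 88.6% of C5ar1 UMIs. Their shares of all UMIs were 6.85%, 2.40% and 0.026% for neutrophils and 10.5%, 8.81% and 5.62% for the macrophage class. In Macrophages C5ar1 was 263 (235 to 293), 200.4 (151 to 262) and 522 (483 to 563) CPM, and the progressed tumor was the highest, whereas Monocytes1 at 238 (209.9 to 268), 202 (172 to 235) and 137 (94.6 to 191) CPM was lowest in that tumor.

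Between tumors, the macrophage class of the progressed tumor held the most C1q. C1qa stood at 2394 (2332 to 2458), 1789 (1711 to 1870.4) and 5534 (5416 to 5653) CPM in that class. C1qb stood at 2863, 1781 and 6134 CPM and C1qc at 2124, 1153 and 4574 CPM, both in the same order of tumors. For progressed over regressed, 6 of 9 members were over 2-fold higher (C1qa, C1qb, C1qc, C4b, Cfb and C5ar1), where 4.99% of all genes were, and 0 were over 2-fold lower, where 12.8% were. The C1qa log2 ratio was 1.63 (1.56 to 1.70) and that of C1qc was 1.99 (1.90 to 2.08). For progressed over untreated, 4 members were higher (the C1q chains and Cfb; background 4.16%) and 0 lower (background 6.07%). For regressed over untreated, 0 were higher (background 9.70%) and 1, C4b at -1.68 (-2.23 to -1.16), was lower (background 3.99%). The member median log2 ratio was 1.46, 0.91 and -0.38 in these comparisons, against -0.20, -0.067 and 0.13 for all genes.

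The make-up of the macrophage class moved with these differences. With Monocytes2 added to the class, 0 members were over 2-fold higher for progressed over untreated, and with equal weight per cell C4b was within 2-fold for regressed over untreated. It held 312, 143 and 339 Macrophages cells to 225, 197 and 53 Monocytes1 cells. Within Macrophages alone the progressed over regressed log2 ratios of C1qa, C1qb and C1qc were 0.20 (0.12 to 0.27), 0.49 (0.40 to 0.57) and 0.53 (0.44 to 0.63), all under 2-fold. The members past 2-fold there were 3, namely C4b (1.49, 0.87 to 2.19), Cfb (1.32, 0.43 to 2.36) and C5ar1 (1.38, 0.98 to 1.81), with a background of 8.89% higher and 9.05% lower. For progressed over untreated only C3 passed, at 1.07, 0.43 to 1.75 (background 3.55% higher and 4.84% lower), and for regressed over untreated only C4b passed, downward (background 7.69% higher and 10.7% lower). Within Monocytes1 the C1q chains went the other way. As given above, Mrc1 was highest and Plac8 and Ly6c2 were lowest in these cells of the regressed tumor. Ccr2 and Chil3 were highest there, and the other macrophage markers were highest in another tumor. The part of these markers in the difference was not tested. Regressed over untreated, all 3, and no other member, were over 2-fold higher and none was lower (background 12.5% and 3.19%), C1qa by a log2 ratio of 1.92 (1.65 to 2.21). Progressed over regressed, among members with at least 20 UMIs, all 3 were over 2-fold lower together with C3ar1 (background 19.0%) while C3 and Cfb were higher (background 4.54%), C1qa by -2.34 (-3.002 to -1.75), on 53 cells.

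**Figure D5:**
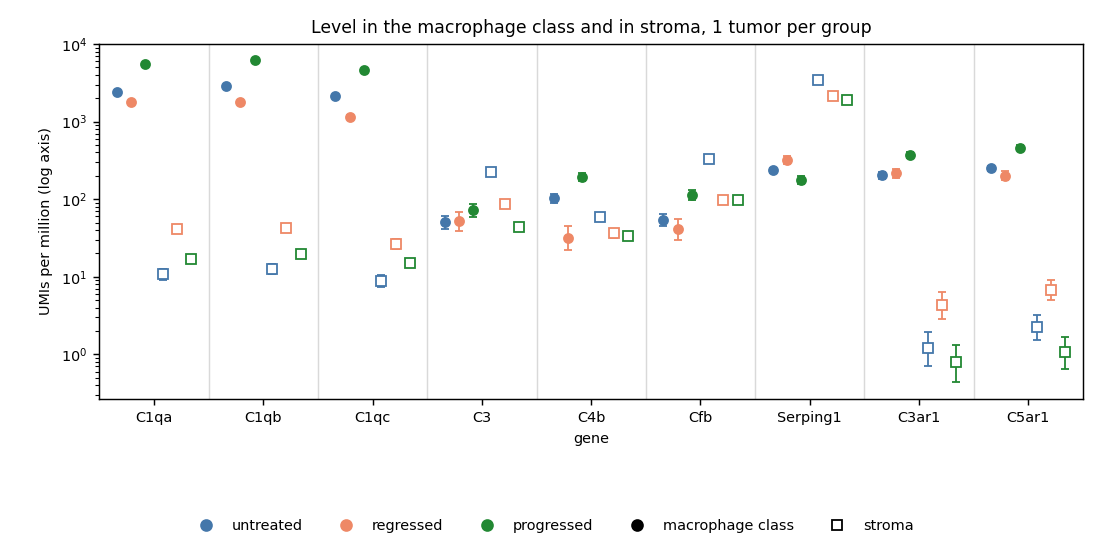
The y axis (log scale) gives the CPM of each member (x axis) in the macrophage class (filled circles) and in stroma (open squares), with exact Poisson 95% intervals as bars, colored by tumor. The C1q chains lie highest in the progressed tumor in the macrophage class, and C3 and Cfb lie highest in the untreated tumor in stroma.

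In stroma the C1q chains and receptors were highest in the regressed tumor, and C3 and Cfb were highest in the untreated tumor. Regressed over untreated, 5 members were over 2-fold higher (the C1q chains, C3ar1 and C5ar1; background 13.7%) and 2, C3 and Cfb, were lower (background 7.09%), Cfb at -1.72 (-1.84 to -1.60). Progressed over regressed, 0 were higher (background 4.99%) and 4 lower (C1qa, C1qb, C3ar1 and C5ar1; background 15.9%). Under TMM scaling C1qa and C1qb were within 2-fold there, at -0.99 and -0.80, leaving 2. Progressed over untreated, 0 were higher (background 3.57%) and 3 lower (C3, Cfb and C5ar1; background 5.70%). The receptor levels were 1.21, 4.36 and 0.796 CPM for C3ar1 and 2.27, 6.85 and 1.08 CPM for C5ar1, on 17, 28 and 14 and on 32, 44 and 19 UMIs. Serping1 differed by less than 2-fold in each comparison, its log2 ratio being -0.72 (-0.75 to -0.69), -0.14 (-0.17 to -0.11) and -0.86 (-0.88 to -0.84) in that order, and the middle value turned positive under TMM scaling. Stroma of the regressed tumor was 75.6% Stroma10 and 21.5% Stroma9 by UMIs, clusters nearly absent from the other tumors, so cluster and tumor cannot be told apart there. Over Stroma1 to Stroma7 alone, 0 members were over 2-fold lower for regressed over untreated. In the regressed tumor these clusters held only 1, 1, 12, 20, 0, 13 and 6 cells, in that order. Its 1 Stroma1 cell held 2.15% of its stroma C3, and its 13 Stroma6 cells held 4.56% of its stroma Cfb. With the 4 clusters that had at least 10 cells in each tumor (Stroma3, Stroma4, Stroma6 and Stroma8) weighted equally, the Cfb ratios of regressed and of progressed over untreated and the C3 ratio of progressed over regressed turned positive, 2 of these clusters resting on 12 and 13 cells of the regressed tumor.

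Other complement genes were looked up in a list of 56, the 9 members included. Of these, 45 had at least 20 UMIs and 5 had none (Mbl1, Colec10, C8a, C8b and C4bp, all chiefly liver products). Of the genes that are not members, 21 of 36 were over 2-fold lower in the macrophage class than in stroma in the untreated tumor, 15 of 29 in the regressed and 14 of 33 in the progressed tumor, while 8, 6 and 9 were higher. Of all genes 30.5%, 27.3% and 28.8% were lower and 14.0%, 13.1% and 13.2% higher. Among the higher genes that are not members in the progressed tumor was C4a, whose counts are not separate from those of C4b. The fibroblast side included the proteases that act with C1q. C1s1 stood at 492, 412 and 363 CPM in stroma and C1ra at 61.2, 102 and 37.2 CPM. C2, which supplies the protease of the classical C3 convertase, stood at 331, 322 and 156 CPM. C1s1 and C2 were highest in the untreated and lowest in the progressed tumor, and C1ra was highest in the regressed tumor. Of the late components, Hc, which encodes C5, was at 10.4, 7.63 and 13.98 CPM in stroma, highest in the progressed tumor, C7 at 3.34, 26.3 and 0.398 CPM and C6 at 10.6, 2.18 and 0.171 CPM, with C7 highest in the regressed and C6 highest in the untreated tumor.

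Macrophages and other cells carried the remaining genes. In the macrophage class, Cfp, which encodes properdin, stood at 327, 317 and 232 CPM, and the complement receptor chains Itgam and Itgb2 stood at 276, 356 and 189 CPM and 178, 220.5 and 141 CPM. Fcna, which encodes a ficolin, was at 119, 5.49 and 133 CPM, so that the regressed tumor stood far below both others. Vsig4, a receptor for C3 fragments, was at 10.3, 4.57 and 27.1 CPM. Blood vessel cells held Cd93 at 421, 415 and 599 CPM. Tumor cell clusters held Cd59a, an inhibitor of membrane attack, at 398, 203 and 204 CPM, highest in the untreated tumor. Between tumors, 4 of 17 of the other genes were over 2-fold higher and 2 lower in the macrophage class for progressed over regressed, where 4.99% and 12.8% of all genes were. One of the genes that were higher is C4a, whose counts are not separate from those of C4b. In stroma, 11 of 32 were lower and 0 higher for progressed over untreated, where 5.70% and 3.57% of all genes were.

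The genes with the most similar pattern were found by Pearson r of log2(CPM + 1) over the 53 groups of at least 20 cells, among 12964 genes. Groups of 1 tumor share a library and groups of 1 cluster share a cell type, so r is a description. C1qa was closest to C1qb (r = 0.917), Cx3cr1 (0.848) and Ms4a7 (0.829). C1qb was closest to C1qa, Aif1 (0.888) and C1qc (0.866), and C1qc to Mrc1 (0.886), C1qb and Fcrls (0.837). C3ar1 went with Adgre1 (0.847), Cx3cr1 (0.834) and Gm36587 (0.825), and C5ar1 with Fcgr4 (0.877), Cd300ld (0.873) and Klra2 (0.855). On the fibroblast side Serping1 was closest to C1s1 (0.953), the protease its product inhibits, then Cygb (0.937) and the collagen-binding gene Dcn (0.925). Cfb was closest to Loxl1 (0.753), Slfn5 (0.746) and Gadd45g (0.741). For C3 and C4b the closest entries were the features that share their counts, followed by Vegfd (0.687) and Gpx3 (0.657) for C3 and by Scamp5 (0.714) for C4b.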

How the data were processed

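Single cells of 3 dissociated mouse melanomas were captured in droplets, 1 tumor per state, and their 3′ transcript ends were sequenced with UMIs. The authors deposited whole-number UMI counts per gene and cell and, per the file headers, a table with a cluster name for each of 12670 cells. The submitters' processing notes name GSNAP, the builds GRCm38 and mm10, and Seurat 2.2.0. The annotation release is not given in the sources used here. All deposited cells were used, none under 300 UMIs. No cell ID was shared between libraries (0), but these IDs are not barcodes. The counts summed to 4.42% to 6.09% more than the deposited totals per cell. Numbered features were matched to RefSeq symbols (31049 of 36530, the rest holding 3.75% of UMIs).

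UMIs were summed per cluster or class and tumor and divided by the sum of all UMIs in it (CPM). With 1 tumor per group no model was fitted and no p-value was computed. A gene was called past 2-fold between sums, among genes with at least 20 UMIs in the pair. Where a sum was 0, 3 UMIs per group stood in its place as a bound. Levels were compared for 1 gene between groups, not between genes. Shares of cells were also taken after thinning each cell to 1000 UMIs. No doublet caller was run, and an alternative dropped the deepest 5% of cells. The members and lists were chosen with earlier results of these data known. The genes named are the 9 members, those of the complement list past 2-fold or showing the source of a family, and the 3 of highest r per member among genes with at least 200 UMIs. The code was tested on simulated data. Part of the genotype and 1 gene of the complement list are not reported here. Python 3.11.15 with numpy 2.4.6, pandas 2.3.3, scipy 1.17.1 and matplotlib 3.10.9 was used, and edgeR 4.0.16 in R 4.3.3 gave the TMM factors of 1 alternative.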

Additional observations from a re-analysis of the deposited data

Results flagged for a closer look

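For each of the 9 members, in at least 1 comparison, the difference between a pair of tumors ran one way in the macrophage class and the other way in stroma, with both intervals away from 0. Among 8896 genes with at least 20 UMIs in both classes in every comparison, 10.4% did so in at least 1 comparison, and by comparison the share was 2.87% for regressed over untreated, 5.06% for progressed over regressed and 4.74% for progressed over untreated. These genes were not matched to the members for UMI counts, and counting intervals are narrower where counts are high. Each class is 1 tumor per state, so the difference between the classes was not tested. The counting intervals leave out the spread between animals. For regressed over untreated, the log2 ratio of C1qa was -0.42 in the macrophage class and 1.94 in stroma, that of C1qb -0.68 in the macrophage class and 1.76 in stroma, and that of C1qc -0.88 in the macrophage class and 1.58 in stroma. The C1qa value of the macrophage class turned to 0.36 in Macrophages alone and was 1.92 within Monocytes1, so that its direction was held in neither cluster. C5ar1 was at -0.32 in the macrophage class and 1.59 in stroma, and Serping1 ran the opposite way, at 0.45 in the macrophage class and -0.72 in stroma.

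For progressed over regressed, C1qa was at 1.63 in the macrophage class and -1.30 in stroma, C1qb at 1.78 in the macrophage class and -1.11 in stroma, and C1qc at 1.99 in the macrophage class and -0.80 in stroma. The receptors followed, C3ar1 at 0.79 in the macrophage class and -2.45 in stroma and C5ar1 at 1.19 in the macrophage class and -2.66 in stroma. The macrophage markers in stroma had a median of 0.725%, 3.04% and 0.519% of their macrophage level in the untreated, regressed and progressed tumors, so they too were highest in regressed stroma, and their part in these differences was not tested.

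For progressed over untreated, C3 was at 0.52 in the macrophage class and -2.35 in stroma, and Cfb at 1.08 in the macrophage class and -1.71 in stroma, the Cfb stroma value turning to 0.28 over shared clusters weighted equally, which ends the opposite direction. C4b was at 0.91 in the macrophage class and -0.81 in stroma, and C5ar1 at 0.87 in the macrophage class and -1.07 in stroma.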

How the results depend on the processing

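No paired analysis was possible because each state was 1 tumor, and for the same reason no replicate could be left out. Counts of members past 2-fold were recomputed under each alternative. Between macrophage class and stroma, the lower count in the regressed tumor went from 2 to 1 when the deepest 5% of cells were dropped. In the macrophage class, the regressed over untreated lower count went from 1 to 2 with TMM scaling, to 0 with equal weight per cell and to 2 with Monocytes2 added. The progressed over regressed count there went from 0 to 1 lower with equal weight per cell and with Monocytes2, and from 6 to 3 higher in Macrophages alone. The progressed over untreated higher count went from 4 to 1 in Macrophages alone and to 0 with Monocytes2. In stroma, the regressed over untreated lower count went from 2 to 0 over Stroma1 to Stroma7, to 1 without Stroma10 and to 1 over shared clusters weighted equally, the progressed over regressed lower count from 4 to 2 with TMM scaling, and the progressed over untreated lower count from 3 to 1 over shared clusters. Directions turned for C1qa, regressed over untreated in the macrophage class (log2 0.078 with equal weight per cell, 0.36 in Macrophages alone), and for Serping1, progressed over untreated in that class (0.088 thinned). In stroma they turned for Serping1, progressed over regressed (0.17 TMM, 0.041 thinned, 0.088 equal weight), C4b, regressed over untreated (0.21 over Stroma1 to Stroma7), and over shared clusters for Cfb, regressed over untreated (0.63), Cfb, progressed over untreated (0.28), and C3, progressed over regressed (0.53). TMM moved every log2 ratio by -0.22, 0.25 and 0.038 in the macrophage class and by -0.25, 0.31 and 0.060 in stroma, for regressed over untreated, progressed over regressed and progressed over untreated. TMM moved the macrophage class over stroma by 0.13, 0.11 and 0.19. Each of the clusters Stroma1 to Stroma7 held at most 20 cells in the regressed tumor. Leaving out Stroma8, chosen after seeing the data, gave 7 in place of 6 higher between classes in the progressed tumor and 5 in place of 4 lower in stroma for progressed over regressed. Of the recomputed counts 142 stayed within 1.5 times and 17 did not, and of the other recomputed values 479 stayed close to the value reported, 229 moved further than its counting interval or 1.5 times and 10 turned direction. Pairs of member and group with a UMI in at least 10% of cells went from 209 to 112 of 477 after thinning, and of 27 closest genes, 10 were kept with Spearman's rho and 15 with groups of at least 50 cells. Depth limits C3ar1 and C5ar1 in stroma, where the progressed tumor held 14 and 19 UMIs.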
